A study of Mus musculus with 2 samples.

Results

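The genes described here are 9 genes of inflammatory signalling, chosen by symbol from the 31053 genes of the count tables. Il1b, Il1a, Tnf and Il18 encode secreted cytokines, Il1rn encodes the antagonist of the interleukin-1 receptor, and Nlrp3 encodes the sensor of an inflammasome. Nfkbia, Nfkbiz and Tnfaip3 encode proteins that restrain or redirect the transcription factor NF-κB. All 9 symbols were found once in the tables, and their UMIs (unique molecular identifiers, each marking 1 captured RNA molecule) were read in 2323 of 2593 barcodes of an MSC-sEV library and in 1347 of 1676 barcodes of a PBS library.

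Each library was made from the retinas of 6 pooled C57BL/6 mice, aged 6 to 8 weeks, at 2 weeks after optic nerve injury. The MSC-sEV mice received what the labels call MSC-sEV, and the PBS mice received PBS in its place; both groups were injured, and no uninjured group was analysed. Cells were enriched on magnetic beads against CD45, the surface protein of leukocytes encoded by Ptprc, and sequenced as droplet libraries of RNA 3′ ends. With 1 library per group there was no replicate, so no test between mice could be made, no p-value is given, and the difference of the libraries cannot be told apart from that of the treatments. All intervals below are 95% intervals for counting error only.

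NF-κB is a family of transcription factors held in the cytoplasm by inhibitors of the IκB family until a cytokine or a microbial product triggers the inhibitor's breakdown. It then switches on cytokine genes such as Il1b and Tnf, and also its own brakes, among them the IκB gene Nfkbia and the ubiquitin-editing enzyme gene Tnfaip3, so that the feedback genes are both targets and regulators of the pathway. The precursor of interleukin-1β is cut to its active form by caspase-1 in inflammasomes, and in the retina microglia, infiltrating myeloid cells and Müller glia are known sources of such cytokines.

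Promoter windows are shown for 4 genes, 2 cytokines and 2 feedback genes, as examples of NF-κB targets with and without a match to its motif next to the start. The windows come from RefSeq for GRCm38.p6, are read 5′ to 3′ on the gene's strand (minus in all 4 cases) and end at the base before the RefSeq start. They cover chr2:129371140-129371389 for Il1b, chr17:35202008-35202257 for Tnf, chr12:55492648-55492897 for Nfkbia and, as a shorter stretch, chr10:19015411-19015540 for Tnfaip3. The Tnfaip3 stretch lies within the gene as GENCODE bounds it, since a further GENCODE transcript starts upstream, and it was cut short to hold none of that transcript's exons. Capitals mark matches on either strand to GGANNTTCC or to the 10-base NF-κB consensus, which can overlap.
Il1b: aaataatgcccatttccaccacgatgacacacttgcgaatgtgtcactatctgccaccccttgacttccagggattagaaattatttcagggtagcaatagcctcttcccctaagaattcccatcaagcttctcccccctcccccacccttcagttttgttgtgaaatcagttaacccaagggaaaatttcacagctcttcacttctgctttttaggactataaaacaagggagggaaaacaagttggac
Tnf: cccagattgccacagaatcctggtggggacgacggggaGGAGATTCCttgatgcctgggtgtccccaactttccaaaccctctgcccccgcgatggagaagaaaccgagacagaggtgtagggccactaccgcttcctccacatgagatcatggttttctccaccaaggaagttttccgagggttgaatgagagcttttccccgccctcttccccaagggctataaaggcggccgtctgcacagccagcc
Nfkbia: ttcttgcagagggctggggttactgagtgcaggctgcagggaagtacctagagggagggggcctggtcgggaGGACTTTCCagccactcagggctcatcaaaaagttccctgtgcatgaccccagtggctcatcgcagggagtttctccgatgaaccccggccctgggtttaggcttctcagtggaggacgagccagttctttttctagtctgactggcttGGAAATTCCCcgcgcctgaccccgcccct
Tnfaip3: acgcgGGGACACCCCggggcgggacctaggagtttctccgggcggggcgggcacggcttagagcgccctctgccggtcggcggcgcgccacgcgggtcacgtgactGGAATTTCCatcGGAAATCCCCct

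Of 12 RefSeq windows of 250 bases before a start, which belong to 8 of the genes, 4 had a match: 1 each of Nfkbia, Tnfaip3, Tnf and Nlrp3. Tnfaip3 and Nlrp3 each had another window with no match. Nfkbia had 2 matches to GGANNTTCC, which begin 178 and 29 bases before the start, and the nearer one also matched the consensus. Tnfaip3 had 1 match to GGANNTTCC, at 24 bases, and 2 to the consensus, at 125 and 12 bases. Tnf had 1 match to GGANNTTCC, at 212 bases. No match lay in the Il1b window, nor in those of Il1a, Il1rn and Il18. Among 32851 windows of all genes, GGANNTTCC was found in 3.59%, the consensus in 7.25% and either of them in 9.18%. A match describes letters in this window and not a bound site.

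The 2 libraries differed in what they held. After 7 and 6 doublet calls were removed, 2316 MSC-sEV cells (median 2922 UMIs, 2.59% mitochondrial) and 1341 PBS cells (median 2588 UMIs, 5.06% mitochondrial) were analysed, and the libraries shared 0 barcodes. Cells fell into 21 clusters, built without the 9 genes and the pathway genes, and clusters were named "-like" from marker lists. Despite the CD45 beads and the label of retinal immune cells, clusters of leukocytes made up 37.7% of MSC-sEV cells and 8.05% of PBS cells, Ptprc was seen in 28.4% and 5.07% of cells, and rods were the most numerous class in both libraries. Microglia-like cells (357 MSC-sEV, 108 PBS) were the only leukocyte class seen in both libraries. The other leukocyte clusters held MSC-sEV cells only: unnamed cluster 15 (143 cells, led by Retnlg, Cd24a and Ccr3), unnamed cluster 18 (142 cells, led by Chil3, Ccl8 and Spp1, with 8 markers of monocytes and 7 of monocyte-derived macrophages), a T cell-like cluster (125), conventional dendritic cell type 2-like cells (56) and migratory dendritic cell-like cells (50).

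Summed over all analysed cells, 6 of the 9 genes were at least 2-fold higher in the MSC-sEV library and none was at least 2-fold lower. These were Il1b, Il1a, Il1rn, Tnf, Nlrp3 and Nfkbiz. Among all 14368 genes with at least 20 UMIs over both libraries, 20.6% were at least 2-fold higher and 10.3% at least 2-fold lower. In such sums, fewer cells of a type and less RNA per cell cannot be told apart, and the libraries differed in their cells as given above.

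Il1b had 5185 UMIs in the MSC-sEV library and 62 in the PBS library, which is 313 and 7.80 CPM (counts per 1e+06 UMIs of the group), a ratio of 40.2 (31.3 to 52.5). Il1rn had 1548 UMIs in the MSC-sEV library and 5 in the PBS library, a ratio of 149 (63.6 to 459). These were the widest gaps of the 9 genes, and both concern the interleukin-1 axis, the cytokine and its receptor antagonist. The ratios of the other called genes were 4.95 for Nfkbiz, 3.59 for Il1a, 3.16 for Nlrp3 and 2.77 for Tnf. Nfkbia, at 1.95, and Tnfaip3, at 1.51, were within 2-fold. Il18 was level, with 14.4 CPM in the MSC-sEV library and 14.7 CPM in the PBS library.

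**Figure D1:**
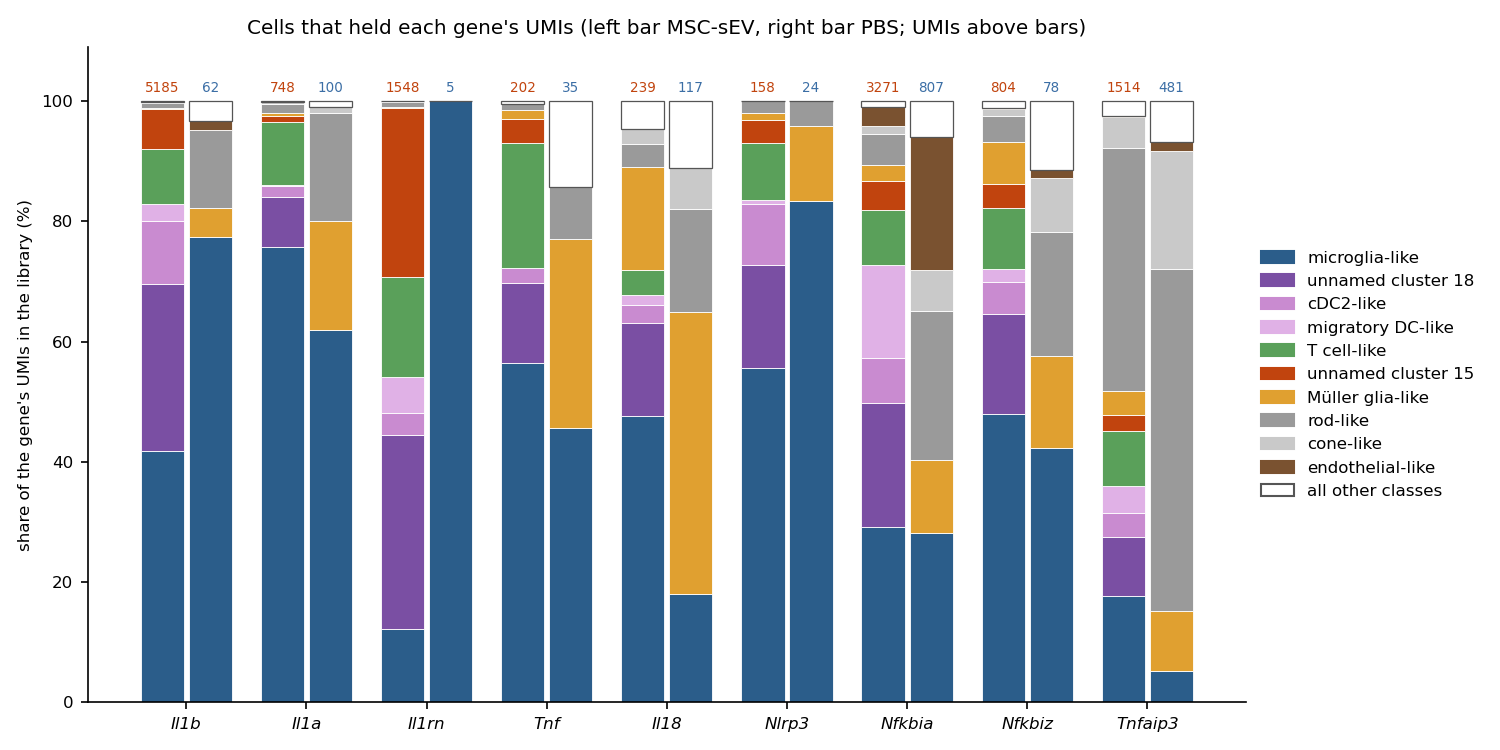
Share of each gene's UMIs (%) held by each cell class, with the MSC-sEV library in the left bar and the PBS library in the right bar of each pair, and the number of UMIs above the bar; DC stands for dendritic cell and cDC2 for its conventional type 2. Leukocyte classes hold nearly all Il1b, Il1a and Il1rn UMIs of the MSC-sEV library, while rod-like cells hold 40.4% of its Tnfaip3 UMIs and Müller glia-like cells hold 17.2% of its Il18 UMIs.

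The cells that held these UMIs differed from gene to gene, as the plot of source cells shows. In the MSC-sEV library, leukocyte clusters held 98.7% of Il1b, 97.6% of Il1a, 98.8% of Il1rn, 97% of Tnf and 96.8% of Nlrp3 UMIs. They held 86.7% of Nfkbia and 86.2% of Nfkbiz, but 72.0% of Il18 and 47.8% of Tnfaip3. In the PBS library, microglia-like cells, the sole leukocytes there, held 77.4% of Il1b, 83.3% of Nlrp3 and 62% of Il1a UMIs, but 28.1% of Nfkbia, 17.9% of Il18 and 5.20% of Tnfaip3.

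**Figure D2:**
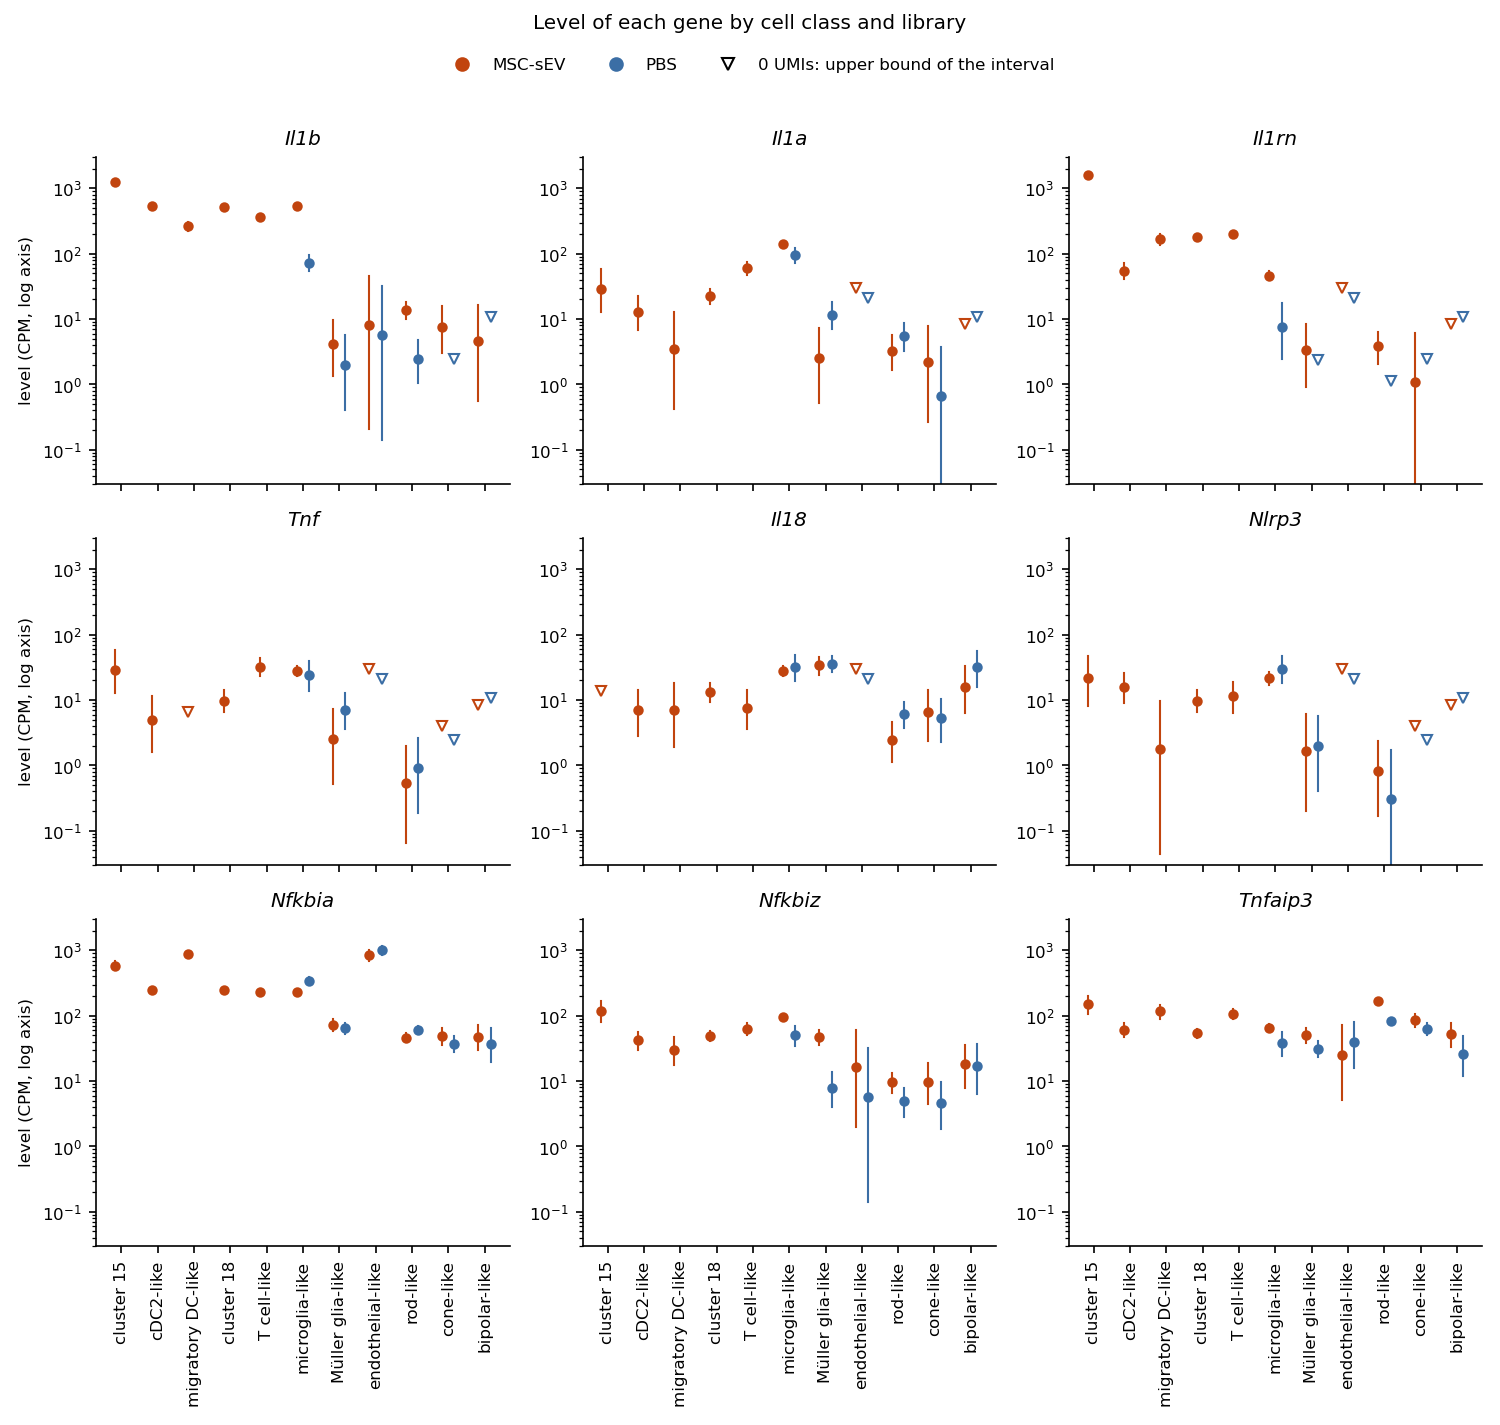
Level of each gene (CPM, log axis) in each cell class, with MSC-sEV points left of PBS points and lines for the 95% Poisson interval; open triangles mark 0 UMIs and stand at the upper bound of the interval; DC stands for dendritic cell and cDC2 for its conventional type 2. Il1b and Il1rn are high in leukocyte classes, and Nfkbia in endothelial-like and migratory dendritic cell-like cells. Tnfaip3 is higher in rod-like cells than in the leukocyte classes of the same library, with an interval that overlaps that of cluster 15 only.

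Il1b lies on chromosome 2 at 129364570 to 129371139, on the minus strand, and encodes interleukin-1β. Exons of the antisense gene Il1bos overlap it on the other strand; Il1bos had 11 UMIs in the MSC-sEV library and 2 in the PBS library. Among MSC-sEV classes the order of Il1b levels was cluster 15 (1260 CPM), conventional dendritic cell type 2-like (541 CPM), microglia-like (529 CPM), cluster 18 (526 CPM), T cell-like (365 CPM) and migratory dendritic cell-like cells (265 CPM). The intervals of the dendritic, microglia-like and cluster 18 cells overlapped, and the others stood apart from their neighbours. In the PBS library microglia-like cells had 73.0 CPM, and no other class of at least 20 cells was above 5.69 CPM.

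By number of UMIs, microglia-like cells held 2164 (41.7%) and cluster 18 held 1444 (27.9%) of the Il1b of the MSC-sEV library. The UMIs were spread over many cells: Il1b was seen in 43.4% of MSC-sEV microglia-like cells and 72.5% of cluster 18 cells, against 4.04% of MSC-sEV rod-like cells, a class that should lack it. Median depths were 5671, 17907 and 2538 UMIs in these 3 groups. After each cell was thinned to 1000 UMIs, with shallower cells left out, the shares were 23.8%, 30.7% and 1.29%.

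Cluster 15 was not uniform in Il1b. Its Il1b UMIs came from 32 of 143 cells (22.4%), and 10 of them held 86.3% of these UMIs. The 32 cells had a median of 1998 UMIs and the 111 cells without an Il1b UMI a median of 1140 UMIs, so the 2 sets also differ in depth and are given as a description only. The neutrophil genes S100a8 (10229 CPM, against 72.1 CPM) and Cxcr2 (1555 CPM, against 72.1 CPM) were higher in the 32 cells than in the 111, while Retnlg, also a neutrophil marker, was lower (5120 CPM, against 11340 CPM). S100a8 was seen in 13 of the 32 cells and in 1 of the 111. The eosinophil receptor gene Ccr3 was lower in the 32 cells (391 CPM, against 999 CPM), and was seen in 59.4% and 65.8% of the cells. Alox15, also an eosinophil marker, was lower as well (326 CPM, against 766 CPM). Siglecf stood at 141 CPM and 172 CPM with overlapping intervals, and was seen in 25% and 20.7% of the cells.

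The T cell-like cluster was mixed as well. At a finer resolution, 53 of its 125 cells joined a microglia-like cluster, where Il1b stood at 829 CPM and Il1rn at 535 CPM, and 59 stayed T cell-like, with Il1b at 207 CPM and Il1rn at 70.0 CPM. The 59 cells also had the microglial complement gene C1qa at 1552 CPM, so their Il1b cannot be assigned to T cells.

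Il1rn lies on chromosome 2 at 24336853 to 24351494, on the plus strand, and encodes a secreted protein that blocks the interleukin-1 receptor. Cluster 15 had the highest level in the MSC-sEV library, at 1591 CPM (1444 to 1748), and Il1rn was seen in 78.3% of its cells, in 62.5% after thinning. The level was 1261 CPM in its 32 cells with Il1b and 1759 CPM in its 111 cells without, and it was seen in 71.9% and 80.2% of these cells. T cell-like (198 CPM), cluster 18 (182 CPM) and migratory dendritic cell-like cells (166 CPM) followed with overlapping intervals. Microglia-like cells stood lower, at 46.5 CPM in the MSC-sEV library and 7.61 CPM in the PBS library. The 53 T cell-like cells that joined a microglia-like cluster at the finer resolution held 193 Il1rn UMIs, against 190 in all 357 MSC-sEV microglia-like cells. The order of the T cell-like and microglia-like classes thus depends on where those 53 cells are placed. In the PBS library, all 5 Il1rn UMIs were in microglia-like cells.

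Il1a lies on chromosome 2 at 129299610 to 129309972, on the minus strand, and encodes interleukin-1α, which binds the same receptor as interleukin-1β. Microglia-like cells were its main source: they held 567 of 748 UMIs in the MSC-sEV library and 62 of 100 in the PBS library. Their levels, 139 CPM in the MSC-sEV library and 94.3 CPM in the PBS library, were the highest of any class in their library, with intervals apart from the next class. Cluster 18, which matched microglia-like cells in Il1b, had 22.6 CPM of Il1a, and conventional dendritic cell type 2-like cells had 13 CPM.

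Tnf, on chromosome 17 at 35199381 to 35202007 on the minus strand, encodes tumour necrosis factor. It was sparse, with 202 UMIs in the MSC-sEV library and 35 in the PBS library, and microglia-like cells held 114 and 16 of them. T cell-like (32.2 CPM), cluster 15 (29.4 CPM) and microglia-like cells (27.9 CPM) of the MSC-sEV library had overlapping intervals, while cluster 18, at 9.83 CPM, had an interval below that of microglia-like cells. Migratory dendritic cell-like cells had 0 UMIs, which allows up to 6.52 CPM at the upper bound of the interval.

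Il18, on chromosome 9 at 50554827 to 50581840 on the plus strand, encodes interleukin-18, an inflammasome-processed cytokine made by many resting cells. Unlike the other cytokines it had similar levels in Müller glia-like cells (34.3 CPM in the MSC-sEV library, 35.8 CPM in the PBS library) and in microglia-like cells (27.9 CPM in the MSC-sEV library, 31.9 CPM in the PBS library), and the intervals overlapped. PBS bipolar cell-like cells had 31.6 CPM. Cluster 15 had 0 Il18 UMIs in 143 cells, which allows up to 13.6 CPM at the upper bound of the interval.

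Nlrp3, on chromosome 11 at 59541568 to 59566956 on the plus strand, encodes the sensor that assembles an inflammasome with the adaptor Pycard and caspase-1. Microglia-like cells held 88 of 158 UMIs in the MSC-sEV library and 20 of 24 in the PBS library. Cluster 15 (22.0 CPM), microglia-like (21.5 CPM) and conventional dendritic cell type 2-like cells (16.0 CPM) of the MSC-sEV library had overlapping intervals. PBS microglia-like cells had 30.4 CPM.

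Nfkbia, on chromosome 12 at 55489410 to 55492647 on the minus strand, encodes IκBα, the inhibitor that NF-κB induces against itself. Endothelial cell-like cells had 850 CPM in 10 MSC-sEV cells and 1009 CPM in 21 PBS cells, the highest level of the PBS library, with 22.1% of all Nfkbia UMIs of the PBS library in those 21 cells. In 1 PBS cell of this class, 70 Nfkbia UMIs were counted. Migratory dendritic cell-like cells reached 896 CPM (820 to 977), the highest level of MSC-sEV classes of at least 20 cells. The 850 CPM of the 10 endothelial cell-like cells lies within that interval. Cluster 15 reached 580 CPM, while cluster 18, conventional dendritic cell type 2-like, microglia-like and T cell-like cells of the MSC-sEV library lay between 228 and 245 CPM with overlapping intervals. Rod-like cells had 46.1 CPM in the MSC-sEV library and 60.7 CPM in the PBS library.

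Nfkbiz, on chromosome 16 at 55811375 to 55838899 on the minus strand, encodes IκBζ, a nuclear co-regulator of secondary NF-κB targets. Cluster 15 (118 CPM) and microglia-like cells (94.4 CPM) were highest in the MSC-sEV library, with overlapping intervals. In cluster 15, 12 of 143 cells carried all 32 UMIs. Microglia-like cells were highest in the PBS library, at 50.2 CPM, and their interval overlapped that of bipolar cell-like cells, at 17.3 CPM.

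Tnfaip3, on chromosome 10 at 19000910 to 19015657 on the minus strand, encodes A20, a ubiquitin-editing enzyme that ends NF-κB signalling. Most of its UMIs were not in leukocytes: rod-like cells held 612 of 1514 in the MSC-sEV library and 274 of 481 in the PBS library. The level in rod-like cells was 167 CPM in the MSC-sEV library and 83.5 CPM in the PBS library, against 65.5 and 38.0 CPM in microglia-like cells of the same libraries.

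Rod-like cells and leukocytes differed in the proportions of some of these genes to Il1b, but not of others. In the MSC-sEV library, rod-like cells had 1224 Tnfaip3 UMIs per 100 Il1b UMIs (917 to 1668), against 14.1 (13.1 to 15.3) in leukocyte clusters. For Nfkbia the number was 338 (245 to 473), against 55.4 (52.9 to 58.0), for Nfkbiz 70 (44.1 to 110), against 13.5 (12.5 to 14.7), and for Il18 18 (7.78 to 37.0), against 3.36 (2.87 to 3.91). For Il1rn it was 28 (14.3 to 51.4), against 29.9 (28.2 to 31.6), and for Il1a 24 (11.6 to 45.7), against 14.3 (13.2 to 15.4), with overlapping intervals that rest on 14 and 12 UMIs in rod-like cells. In the PBS library, where rod-like cells had 8 Il1b UMIs, the numbers for Tnfaip3 were 3425 (1714 to 8013) in rod-like cells, against 52.1 (30.8 to 86.2) in microglia-like cells. MSC-sEV rod-like cells without UMIs of 5 microglia genes had Il1b at 21.8 CPM, and those with them at 8.99 CPM. The part of free RNA in these levels was not tested.

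In microglia-like cells, the one leukocyte class of both libraries, 2 of the 9 genes were at least 2-fold higher in the MSC-sEV library, Il1b and Il1rn, and none was at least 2-fold lower. Among 10285 genes with at least 20 UMIs in these cells, 12.3% were at least 2-fold higher and 7.69% at least 2-fold lower, so the count of members was near the background and the ratios are given as a description. The median of all these genes was 0.05 on the log2 scale.

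Il1b stood at 529 CPM (507 to 552; 2164 UMIs in 155 of 357 cells) in MSC-sEV microglia-like cells, against 73.0 CPM (53.8 to 96.8; 48 UMIs in 8 of 108 cells) in PBS microglia-like cells. The ratio was 7.25 (5.45 to 9.86). Median depth was 5671 UMIs in MSC-sEV and 3075 UMIs in PBS microglia-like cells. After thinning to 1000 UMIs, 23.8% of 311 MSC-sEV cells and 1.22% of 82 PBS cells had an Il1b UMI, against 1.29% of MSC-sEV and 0.168% of PBS rod-like cells. The PBS share of microglia-like cells after thinning was thus 1 cell. The log2 ratio of 2.86 became 3.69 without the 2% of cells with the highest doublet scores and 3.93 with every cell weighted equally.

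Il1rn had 190 UMIs in MSC-sEV microglia-like cells and 5 in PBS microglia-like cells, a ratio of 6.11 (2.57 to 19). This count leaves out the 193 Il1rn UMIs of the 53 T cell-like cells that were microglia-like at the finer resolution. Il1a differed less, at 1.47 (1.13 to 1.94). Tnf, at 1.15 (0.676 to 2.07), Il18, at 0.873 (0.545 to 1.46), and Nlrp3, at 0.707 (0.432 to 1.21), had intervals that held 1. The intervals of the cytokine Il1b and its antagonist Il1rn overlapped each other, and that of the sensor Nlrp3 lay below both.

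The feedback genes did not move as 1 group. Nfkbiz was at 94.4 CPM in MSC-sEV and 50.2 CPM in PBS microglia-like cells, a ratio of 1.88 (1.32 to 2.77), and Tnfaip3 at 65.5 and 38.0 CPM, a ratio of 1.72 (1.14 to 2.71). Nfkbia was lower in the MSC-sEV library, at 233 CPM in MSC-sEV and 345 CPM in PBS microglia-like cells, a ratio of 0.676 (0.584 to 0.784). None of the 3 passed 2-fold. With every cell weighted equally, the Nfkbia difference was -0.02 on the log2 scale, and in the shallow cluster described next it ran the other way, at 87.4 CPM in MSC-sEV and 58.6 CPM in PBS cells, a ratio of 1.49 (0.741 to 3.40).

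**Figure D3:**
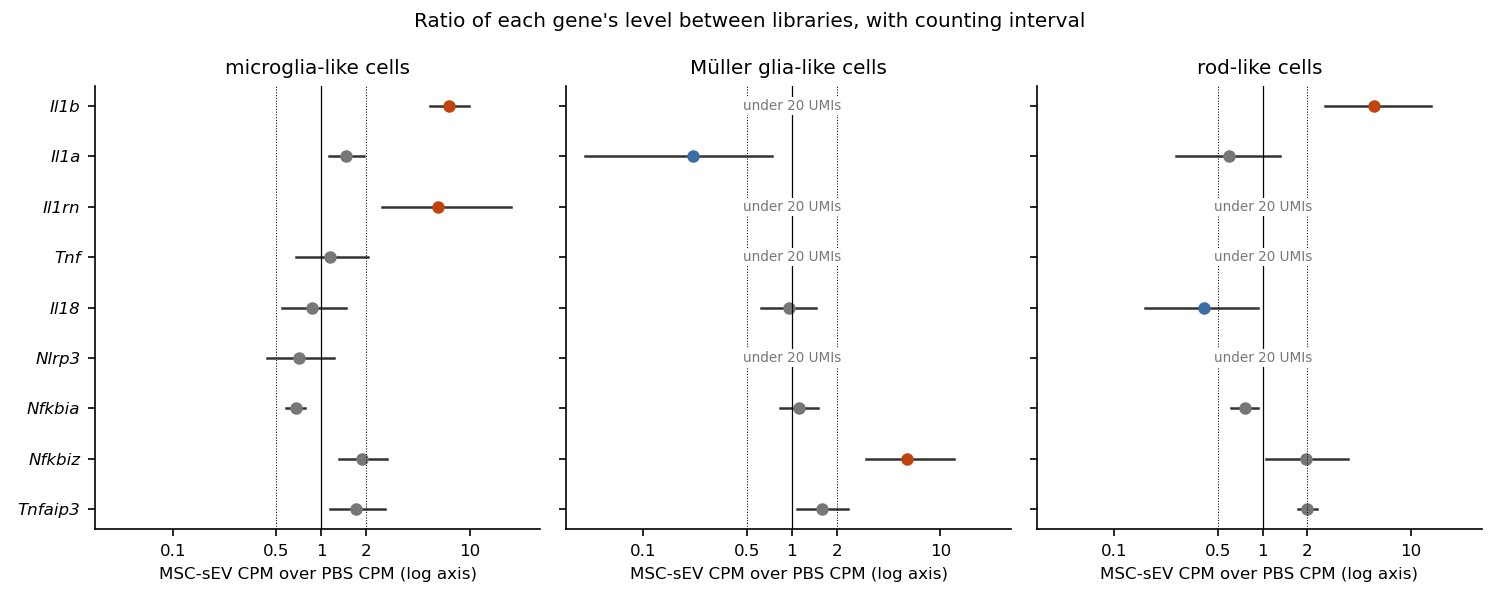
Ratio of CPM in the MSC-sEV library over the PBS library (log axis) in microglia-like, Müller glia-like and rod-like cells, with 95% counting intervals; red points are at least 2-fold higher, blue points at least 2-fold lower, grey points within 2-fold, and genes with under 20 UMIs are marked as such. In microglia-like cells Il1b and Il1rn lie near 7 and 6, and Nfkbia lies below 1.

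Microglia-like cells were a mix of 3 clusters, and their depth differed. Cluster 10 (116 MSC-sEV and 40 PBS cells, median 14875 UMIs) held all 48 Il1b UMIs of PBS microglia-like cells. In this deep cluster alone, Il1b stood at 729 CPM in the MSC-sEV library and 95.3 CPM in the PBS library, Il1rn at 41.5 and 9.93 CPM, Nfkbiz at 129 and 63.5 CPM, and Nfkbia at 304 and 433 CPM. There, 3 of the 9 genes were at least 2-fold higher, with Nfkbiz beside Il1b and Il1rn, and none was at least 2-fold lower, against 9.59% and 6.61% of all genes. At resolution 2.0, however, deep microglia-like cells lay largely apart by library. There 1 cluster held 5 MSC-sEV and 40 PBS cells, and another held 179 MSC-sEV and 0 PBS cells. The deep cluster therefore need not hold 1 cell state in both libraries. The shallow cluster 2 held 182 MSC-sEV and 68 PBS cells, with a median of 2220 UMIs. It had 180 Il1b UMIs in the MSC-sEV library and 0 in the PBS library. With a floor of 3 UMIs over the class for the PBS library, Il1b was 12-fold higher. The lower bound of the interval of this ratio was 9.68. In that cluster 4 of 7 genes with enough UMIs were higher and 1, Il18, was lower, against 19.7% and 6.79% of all genes; Il18 had 18 UMIs in MSC-sEV and 9 in PBS cells. Cluster 19 (59 MSC-sEV cells, 0 PBS cells) had Il1b at 348 CPM.

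Sums over the marker lists also differed between the libraries in microglia-like cells. Summed over 10 monocyte markers, MSC-sEV microglia-like cells had 493 CPM with 10 of 10 detected, and PBS microglia-like cells 28.9 CPM with 5 of 10 detected and Ly6c2 and Ccr2 among those at 0. Summed over 10 markers of monocyte-derived macrophages, the values were 2386 CPM and 183 CPM. The 14 microglia markers summed to 25961 CPM in MSC-sEV and 35948 CPM in PBS microglia-like cells, and the 12 rod markers to 5042 and 12488 CPM. In the deep cluster the monocyte markers summed to 371 and 11.9 CPM, and the monocyte-derived macrophage markers to 2031 and 203 CPM. Which cells made these marker transcripts was not tested, nor was their part in the Il1b and Il1rn differences.

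The immediate-early and heat shock genes, which tissue digestion is known to induce, summed to 10857 CPM in MSC-sEV and 14978 CPM in PBS microglia-like cells. Of 20 such genes with enough UMIs, 2 were at least 2-fold higher and 4 at least 2-fold lower, beside 12.3% and 7.69% of all genes. Jun, the AP-1 subunit, was at 1427 CPM in MSC-sEV and 3084 CPM in PBS cells, Ier5 at 312 and 768 CPM, Junb at 1453 and 2414 CPM, and Atf3, a stress-induced repressor, at 178 and 77.6 CPM. The part of tissue digestion in the Nfkbia difference was not tested.

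Further genes of the pathway were read from 6 lists, of which 90 of 105 genes had at least 20 UMIs in microglia-like cells. In the MSC-sEV library 19 of these 90 were at least 2-fold higher and 5 at least 2-fold lower, beside 12.3% and 7.69% of all genes. The deep cluster alone gave 12 and 6 of 77, beside 9.59% and 6.61% of all genes. The shares of 12.3% and 7.69% are also the background for the count of each list below. Genes with 0 UMIs in the PBS library stand in these counts and medians at the floor of 3 UMIs.

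Among other ligands and decoys of the interleukin-1 and tumour necrosis factor families, 3 of 4 genes were higher, with a median of 1.16 on the log2 scale. Only these 4 of 10 genes had enough UMIs, and 1 in the deep cluster. With 4088876 MSC-sEV and 657359 PBS UMIs in these cells, a sparse gene could reach the minimum mainly through the MSC-sEV library. The count and the median therefore describe these 4 genes and not the list. Il18bp, the soluble trap for interleukin-18, had 54 UMIs in the MSC-sEV library and 1 in the PBS library, a ratio of 8.68 with an interval of 1.49 to 349. Ltb, encoding lymphotoxin β, had 77 and 5 UMIs. PBS counts were small for both genes.

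Among receptors and adaptors, 4 of 23 genes were higher and 1 was lower, with a median of 0.03. Cd14, the co-receptor for lipopolysaccharide, was at 142 CPM in MSC-sEV and 415 CPM in PBS cells, a ratio of 0.343 (0.296 to 0.397). Tlr2, encoding a receptor for bacterial lipoproteins, was at 74.8 and 143 CPM, a ratio of 0.523. Il1rap, the shared chain of the interleukin-1 receptor, had 27 UMIs in MSC-sEV cells and 1 in PBS cells, a ratio of 4.34 with an interval of 0.715 to 178.

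Among inflammasome genes, none of 14 was higher and 1 was lower, with a median of 0.05. Txnip, the thioredoxin-binding protein, was at 130 CPM in MSC-sEV and 271 CPM in PBS cells, a ratio of 0.479 (0.403 to 0.571). Pycard, the inflammasome adaptor, was at 452 and 330 CPM, and Casp4, the mouse caspase-11 gene, at 42.1 and 22.8 CPM. None of the 11 subunits and kinases of NF-κB passed 2-fold, with a median of -0.05; Nfkb1 was at 131 and 106 CPM and Rel at 78.3 and 73.0 CPM.

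Among other feedback genes, 6 of 18 were higher and none was lower, with a median of 0.32. Nfkbid, encoding another nuclear IκB protein, was at 47.4 CPM in MSC-sEV and 13.7 CPM in PBS cells, a ratio of 3.47. Zc3h12a, encoding the ribonuclease regnase-1, was at 58.0 and 18.3 CPM, a ratio of 3.18. The most abundant gene of the list, Zfp36, encoding the mRNA-decay factor tristetraprolin, was at 1157 and 992 CPM, and Socs3 was at 390 and 345 CPM.

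Among NF-κB target genes, 6 of 20 were higher and 3 lower, with a median of 0.50. The chemokine gene Ccl2 was at 485 CPM in MSC-sEV and 155 CPM in PBS cells, a ratio of 3.13 (2.56 to 3.85). The interferon-inducible chemokine gene Cxcl10 had 165 UMIs and 1 UMI, a ratio of 26.5 with an interval of 4.70 to 1054. In the other direction, Ccl5 was at 289 and 608 CPM, and Ebi3, a subunit of interleukin-27 and interleukin-35, at 15.4 and 47.2 CPM.

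**Figure D4:**
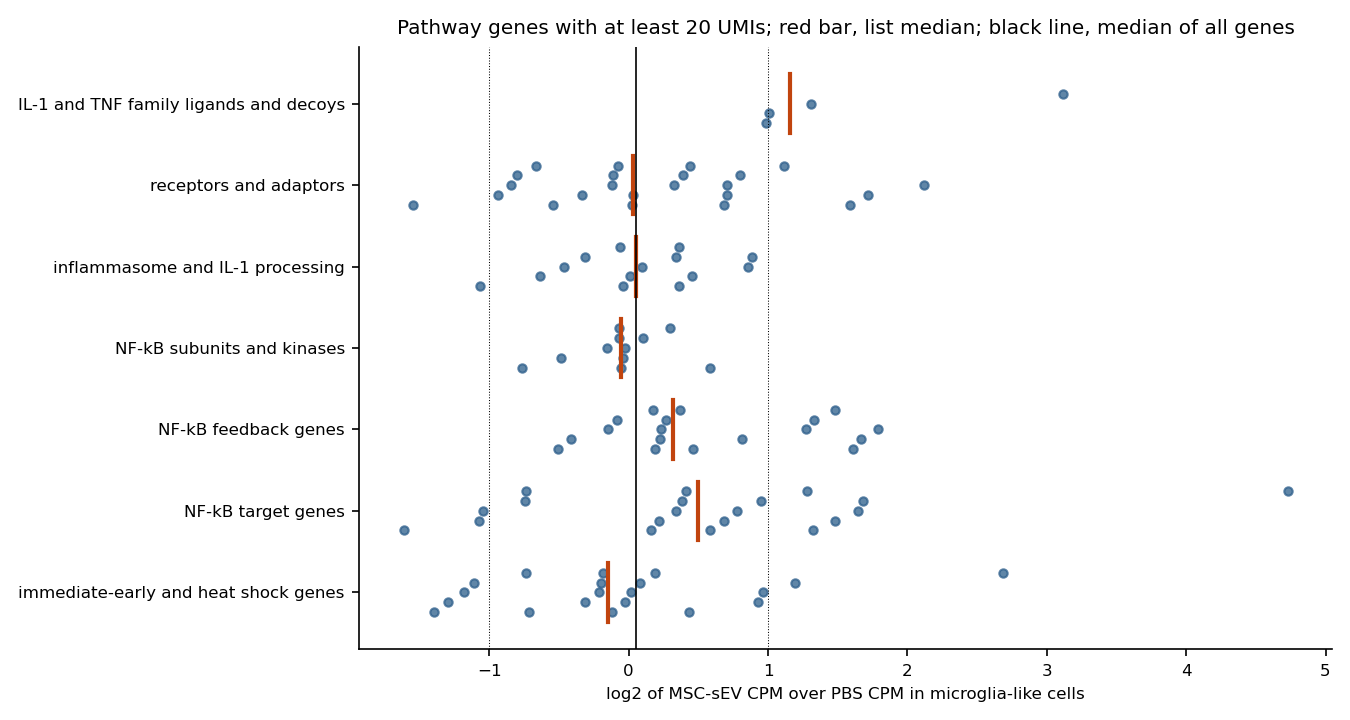
Ratio (log2) of MSC-sEV over PBS levels in microglia-like cells for each pathway gene with at least 20 UMIs, by list; red bars are list medians, the black line is the median of all genes, and dotted lines mark 2-fold. The medians of inflammasome genes and of NF-κB subunits lie near the line, and those of ligands, feedback genes and target genes lie above it. That of ligands rests on the 4 of 10 genes with enough UMIs.

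In Müller glia-like cells (83 MSC-sEV, 138 PBS), 5 of the 9 genes had at least 20 UMIs. Of these, 1 was at least 2-fold higher, Nfkbiz, and 1 at least 2-fold lower, Il1a, beside 8.84% and 4.59% of 10215 genes. Nfkbiz had 56 UMIs (46.8 CPM) in MSC-sEV cells and 12 UMIs (7.81 CPM) in PBS cells, a ratio of 5.99 (3.18 to 12.3). It was seen in 28.9% of MSC-sEV and 7.97% of PBS Müller glia-like cells, and in 8.06% and 1.80% after thinning. The level in MSC-sEV Müller glia-like cells was below that of microglia-like cells of the same library and above that of rod-like cells, at 9.54 CPM.

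Il1a had 3 UMIs in MSC-sEV and 18 in PBS Müller glia-like cells, a ratio of 0.214 (0.0404 to 0.733). All 18 lay in the 88 PBS cells of this class that also held UMIs of microglia markers. These 88 cells were also deeper, with a median of 9506 UMIs, against 1404 UMIs in the 50 PBS cells without such UMIs. In those 50 cells, 0 Il1a UMIs allow up to 16.6 CPM at the upper bound, above the 11.7 CPM of all PBS Müller glia-like cells. The 14 microglia markers summed to 702 CPM in MSC-sEV and 3190 CPM in PBS Müller glia-like cells, and the 12 rod markers to 27927 and 40180 CPM. The part of microglia RNA in the Il1a difference was not tested. In the cells without microglia UMIs (26 MSC-sEV, 50 PBS) only Nfkbia had enough UMIs, at 74.6 and 58.6 CPM, so 0 of 1 gene was called, beside 7% higher and 10.6% lower among all genes. Nfkbiz had 3 and 2 UMIs there. Il18 and Nfkbia were within 2-fold in the whole class, with ratios of 0.957 (0.623 to 1.46) and 1.12 (0.826 to 1.5).

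In rod-like cells (1163 MSC-sEV, 679 PBS), 6 of the 9 genes had enough UMIs, and 1 was at least 2-fold higher, Il1b, and 1 at least 2-fold lower, Il18, beside 15% and 4.86% of 10340 genes. Il1b had 50 UMIs (13.6 CPM) in MSC-sEV and 8 UMIs (2.44 CPM) in PBS rod-like cells. Il18 had 9 and 20 UMIs, and 11 of the 20 lay in cluster 9, 41 PBS cells with 6133 CPM of microglia markers beside 88630 CPM of rod markers. In the clusters of both libraries 2 of 4 genes with enough UMIs were higher, Il1b and Nfkbiz, and none was lower, beside 13.5% and 1.2% of all genes. In cells without microglia UMIs 1 of 4 was higher, Il1b, and none was lower, beside 13.7% and 1.44%. The part of free RNA in these differences was not tested.

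Tnfaip3 was at 167 CPM (154 to 181; 612 UMIs) in MSC-sEV and 83.5 CPM (73.9 to 94.0; 274 UMIs) in PBS rod-like cells, a ratio of 2.00 (1.73 to 2.31) that lay just under the 2-fold mark before rounding. It was seen in 33.3% of MSC-sEV and 27.1% of PBS cells, and in 15.2% and 9.55% after thinning. The median of all genes in rod-like cells was 0.27 on the log2 scale, and the Tnfaip3 difference relative to it was 0.72. In the clusters of both libraries the ratio was 1.69 (1.46 to 1.98), and in the cells without microglia UMIs it was 1.58 (1.26 to 2.00).

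The 4 rod-like clusters of both libraries each had the higher Tnfaip3 level in the MSC-sEV library. Cluster 0 had 187 CPM in the MSC-sEV and 124 CPM in the PBS library, cluster 1 had 153 and 102 CPM, cluster 4 had 167 and 80.6 CPM, and cluster 5 had 134 and 118 CPM. The interval of the ratio held 1 in cluster 5 and lay above 1 in the others. Cone-like cells had 85.3 and 62.5 CPM, a ratio of 1.36 (0.998 to 1.86). Unnamed cluster 7, which had 4 rod markers, had the highest level of the classes of at least 20 cells in both libraries. It stood at 194 CPM (100 to 339) in the MSC-sEV and 190 CPM (61.7 to 443) in the PBS library, so the libraries hardly differed there. Endothelial cell-like cells, at 24.7 CPM in the MSC-sEV and 39.7 CPM in the PBS library, and unnamed cluster 6, at 24.2 and 54.0 CPM, had the lower level in the MSC-sEV library, with overlapping intervals.

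**Figure D5:**
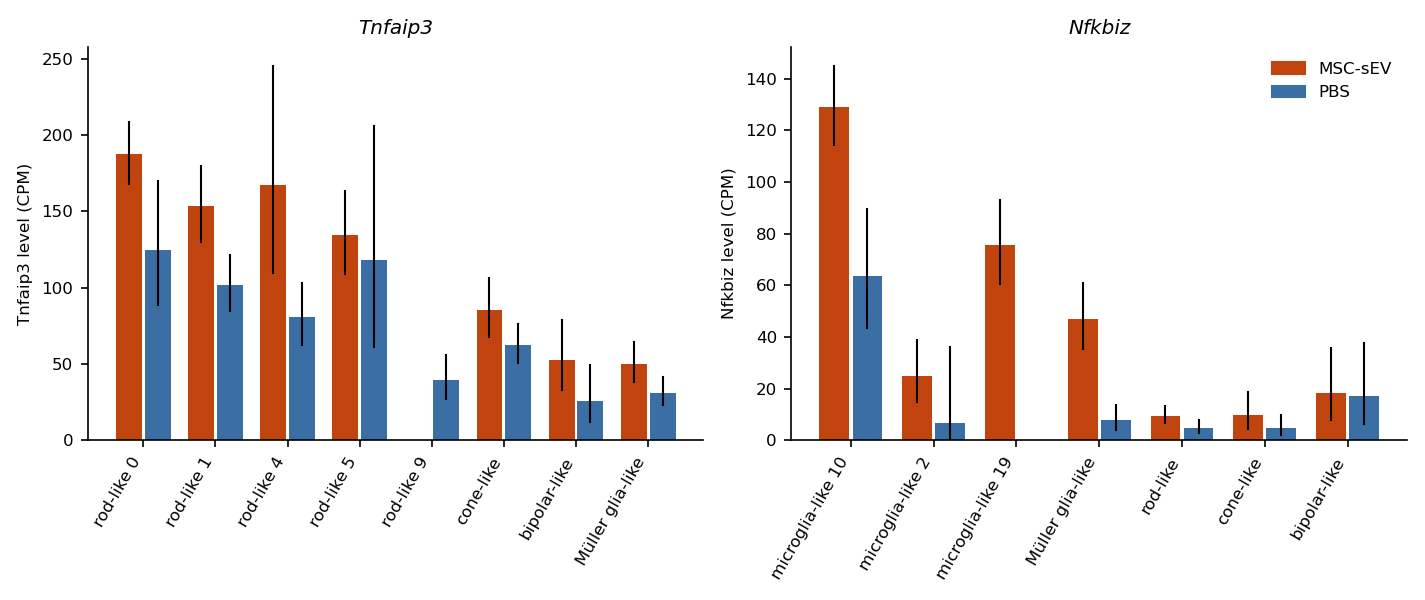
Levels (CPM, bars, with 95% Poisson intervals) of Tnfaip3 in photoreceptor and other retinal clusters and of Nfkbiz in microglia-like clusters and retinal classes, MSC-sEV left of PBS; rod-like cluster 9 had no MSC-sEV cells and microglia-like cluster 19 no PBS cells. Tnfaip3 is higher in the MSC-sEV bar of each pair drawn, with overlapping intervals in several pairs, and Nfkbiz in Müller glia-like cells is at 46.8 and 7.81 CPM.

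Across 20 groups of class and library, the gene whose level (log2 of CPM plus 10) was most like that of Il1b was Csf2rb, a shared chain of cytokine receptors (Pearson r = 0.970), followed by Ccdc88b, Elf4, Slfn2 and Themis2. The gene most like Il1rn was Gdap10 (0.984), the gene most like Il1a was Ptgs1 (0.949), the gene most like Tnf was Tspan32 (0.954), and the gene most like Nlrp3 was Pik3ap1 (0.975). Among the 9 genes, Il1b was most like Il1rn (0.911), and Il1a was most like Tnf (0.921). Against Il1b, r was 0.0109 for Il18 and 0.288 for Tnfaip3. The most alike genes were Nxt2 for Il18 (0.925), Lmnb1 for Tnfaip3 (0.885), Tmod3 for Nfkbia (0.928) and Sord for Nfkbiz (0.934). The groups share libraries, depth and cells of leukocyte origin, so these values are descriptions.

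Within single cells, Il1b was set beside the other genes at 2 thinning depths. Of 74 MSC-sEV microglia-like cells with an Il1b UMI after thinning to 1000 UMIs, 12.2% (5.71 to 21.8) also had Nfkbiz, against 4.22% (2.04 to 7.62) of 237 cells without Il1b. After thinning to 2000 UMIs the shares were 18.4% (11.3 to 27.5) and 10.8% (6.63 to 16.3), higher beside Il1b at both depths but with overlapping intervals. Il1a gave 14.9% and 9.70% at 1000 UMIs, and 24.5% and 16.5% at 2000 UMIs. Tnfaip3 gave 17.6% and 3.80% at 1000 UMIs, but 11.2% and 10.2% at 2000 UMIs. In the deep cluster alone, Nfkbiz gave 14.9% and 13% at 1000 UMIs and 24.1% and 29.1% at 2000 UMIs. Il1a gave 14.9% and 20.3% at 1000 UMIs and 31.0% and 32.7% at 2000 UMIs. There, Nfkbiz was more frequent beside Il1b at 1000 UMIs only, and Il1a was less frequent at both depths, with overlapping intervals. Among MSC-sEV leukocytes that were not microglia-like, Il1a was seen in 10.7% (6.35 to 16.6) of 159 cells with Il1b and 1.41% (0.291 to 4.06) of 213 cells without it at 2000 UMIs, and in 3.42% and 0.875% at 1000 UMIs. These clusters differ in both genes, so the shares mix clusters. In cluster 18 alone at 2000 UMIs, Il1a was seen in 6.35% (1.76 to 15.5) of 63 cells with Il1b. It was seen in 2.86% (0.348 to 9.94) of 70 cells without Il1b, and at 1000 UMIs in 0% of both. In the PBS library 1 microglia-like cell had an Il1b UMI after thinning to 1000 UMIs, which allowed no comparison.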

How the data were processed

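Single-cell RNA was measured in 2 droplet libraries, 1 per group, so no test across replicates was possible. The authors deposited UMI counts per gene and barcode, made with Cell Ranger 3.0.2 against mm10 as the submitters' processing notes record; the sources used here give no annotation release. Gene positions come from GENCODE for GRCm38, in which 30934 of the gene IDs were found. The sources used here do not give how strand was counted.

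A barcode entered with 500 or more UMIs, 300 or more genes and no more than 15% of its UMIs from mitochondrial genes. Doublets were called by Scrublet per library at an expected 2% and removed; it called so few that doublets were in effect not removed, and an alternative without the top 2% of scores was added. With scanpy 1.11.5, cells were clustered on 2000 variable genes (without mitochondrial, ribosomal protein and sex-linked genes, the 9 genes and the pathway lists), 30 principal components and 20 neighbours, by Leiden at resolution 1.0. A cluster was named "-like" when 3 or more markers of 1 of 29 lists were each detected in 20% or more of the cluster and exceeded the other cells by 2-fold or more, unless its top 10 genes held more markers of another class. It was also left unnamed when its median depth was under 1/3 of the library medians and its top 10 genes held none of its own markers. Cluster 7 (62 MSC-sEV and 31 PBS cells), with 4 rod markers, was thus not counted as rod-like.

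UMIs were summed per class and library and given as CPM with exact Poisson intervals. Ratios of MSC-sEV over PBS have exact conditional binomial intervals and shares have exact Clopper-Pearson intervals, all at 95%. UMIs of 1 cell are not independent, so these intervals cover counting error only. A gene was counted as higher or lower past 2-fold with at least 20 UMIs over both libraries; a library at 0 was set to a floor of 3 UMIs over the class. The ratio intervals were tested on counts simulated as independent Poisson draws, which is the model they assume. That test could not cover the clumping of UMIs within cells. Cells were thinned to 1000 UMIs for shares.

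The 9 genes, the marker lists and the pathway lists were chosen with earlier results of these data known. Named pathway genes were, per list, the 3 with the most UMIs, the 2 largest and the 2 smallest ratios, and not all are printed; likeness used genes with at least 50 UMIs. Alternatives changed the cell filter, doublet treatment, resolution, class assignment, variable genes, denominator, scaling, weight of cells, thinning depth and count minimum.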

Additional observations from a re-analysis of the deposited data

Results flagged for a closer look

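The Il1a difference ran in opposite directions in 2 classes. It was 0.56 on the log2 scale in microglia-like cells and -2.22 in Müller glia-like cells (MSC-sEV over PBS), where all 18 PBS UMIs lay in cells that also held UMIs of microglia markers. Those cells had a median of 9506 UMIs, against 1404 UMIs in the PBS Müller glia-like cells without such UMIs. The difference between the classes was not tested.

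Barcodes below the cell filter (270 MSC-sEV, 329 PBS) are outside the comparisons and carried the same genes. In them Il1b was at 40.3 CPM in the MSC-sEV and 2.48 CPM in the PBS library, Il1rn at 33.19 CPM and 0 CPM, and Nfkbiz at 37.93 CPM and 9.94 CPM.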

How the results depend on the processing

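No paired analysis was possible because each group had 1 library. Of 288 alternative values for single genes, 269 kept the direction reported and 254 moved by less than the counting error; none of the genes past 2-fold reversed. The count of genes at least 2-fold higher over all analysed cells stayed within 1.5 times of 6. In microglia-like cells Il1b ranged from 2.80 to 3.93 and Il1rn from 2.06 to 4.14 on the log2 scale, while Nfkbia ranged from -0.69 to 0.58, Tnf from -0.90 to 0.49 and Il18 from -1.89 to 0.42, so the directions of these 3 depended on the setting, as did those of Il1a, Nfkbia and Nfkbiz in rod-like cells, of Il18 and Nfkbia in Müller glia-like cells and of Il18 over all analysed cells. Nfkbiz in Müller glia-like cells ranged from 1.31 to 2.73, with every cell weighted equally at the low end, and Tnfaip3 in rod-like cells from 0.65 to 1.03. The count of genes at least 2-fold higher was 4, against 2, in the shallow microglia-like cluster alone. In Müller glia-like cells it was 2, against 1, by marker score and 0 without microglia UMIs, where 1 gene had enough UMIs. In rod-like cells it was 2, against 1, at resolution 2.0, at resolution 0.5, by marker score, with pathway genes left in, with cells weighted equally and in the clusters of both libraries. The 19 higher pathway genes were 12 in the deep cluster alone, where fewer genes had enough UMIs. The microglia-like share of MSC-sEV Il1b UMIs, 41.7%, was 37.16% with the stricter filter, 49.27% without doublet removal, 48.29% at resolution 2.0, 48.85% at resolution 0.5 and 39.34% by marker score. The share of Il1b-containing microglia-like cells that also held Nfkbiz, 12.2%, was 46.45% without thinning. Except where a cause is given, the cause was not tested. The settings of the deep and shallow clusters, of cells without microglia UMIs, of the rod-like clusters and of the doublet scores were chosen after seeing the data. Precision was limited by the 108 PBS microglia-like cells, in which Il1rn had 5 UMIs, and intervals do not cover the spread between mice.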
